A study of Mus musculus with 7 samples.

Results

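Myosin heavy chains were examined in the soleus, a hindlimb muscle used in standing, through the 4 probes whose annotated symbol is Myh7, Myh2, Myh1 or Myh4. These are 4 of the 223 probes on the array, and each gene has a single probe. All 7 arrays come from 1 group: cage-control 129/SV mice with a null Tnc gene, so that tenascin-C, a matrix glycoprotein, is missing in all of them. The series describes the 7 as biological replicates, and the ages and sexes were not used here. No wild-type or treated muscle was analysed here, so the data cannot show what the loss of Tnc does, and the comparisons are between mice and between the 4 genes. The replicate numbers follow accession order and only name the mice.

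A muscle fibre moves by myosin, a motor whose heavy chain splits ATP and pulls on actin. The heavy chain gene that a fibre uses largely sets how fast it shortens. Myh7 encodes the slow (type I) chain, which is also used in the heart. Myh2 encodes the fast IIA chain of oxidative fibres, Myh1 the faster IIX chain and Myh4 the IIB chain of the fastest, glycolytic fibres. Mouse soleus is known for a mix of slow and IIA fibres, in contrast to the fast muscles beside it.

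The genes lie in separate clusters of myosin genes. In the RefSeq table for GRCm38.p6, Myh2, Myh1 and Myh4 follow one another on chromosome 11 among protein-coding genes, between Myh3 and Myh8. Myh7 lies on chromosome 14 next to Myh6. RefSeq promoter sequences were found for all 4 genes, with 2 annotated starts for Myh7, of which the more upstream was taken. The 250 bases before each start are shown because the slow and fast chains are compared as groups, and the 3 fast genes are neighbours. The windows are chr11:67170777-67171026 (+) for Myh2, chr11:67199852-67200101 (+) for Myh1, chr11:67237562-67237811 (+) for Myh4 and chr14:54994627-54994876 (-) for Myh7, all GRCm38.p6. Capitals mark the longest run of bases common to the 3 fast chains and each TATAAA on the strand of the gene.
Myh2: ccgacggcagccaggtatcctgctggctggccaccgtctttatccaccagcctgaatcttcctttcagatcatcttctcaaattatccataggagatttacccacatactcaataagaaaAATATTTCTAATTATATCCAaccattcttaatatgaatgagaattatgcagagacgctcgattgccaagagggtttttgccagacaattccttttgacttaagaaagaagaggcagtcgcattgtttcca
Myh1: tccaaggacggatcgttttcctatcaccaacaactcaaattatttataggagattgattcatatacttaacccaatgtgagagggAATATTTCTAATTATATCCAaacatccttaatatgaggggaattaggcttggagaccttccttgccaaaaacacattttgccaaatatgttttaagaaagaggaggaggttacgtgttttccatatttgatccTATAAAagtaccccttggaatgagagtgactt
Myh4: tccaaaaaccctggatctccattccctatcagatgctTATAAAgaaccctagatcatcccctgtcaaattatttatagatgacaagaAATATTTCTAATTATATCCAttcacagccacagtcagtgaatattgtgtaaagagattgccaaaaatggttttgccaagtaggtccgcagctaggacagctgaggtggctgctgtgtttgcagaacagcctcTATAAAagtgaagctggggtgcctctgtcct
Myh7: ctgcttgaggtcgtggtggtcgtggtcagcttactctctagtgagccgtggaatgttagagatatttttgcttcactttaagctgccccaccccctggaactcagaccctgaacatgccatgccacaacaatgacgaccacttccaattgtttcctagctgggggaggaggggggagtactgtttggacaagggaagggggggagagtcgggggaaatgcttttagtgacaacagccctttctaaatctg

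The common run, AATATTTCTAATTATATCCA, is 20 bases long. It starts 130, 165 and 163 bases before the start of Myh2, Myh1 and Myh4. Among 32851 promoter windows of the same length, it was found on either strand in those 3 windows (0.00913%). A TATAAA lies 32 to 27 bases before the start of Myh1 and 31 to 26 bases before that of Myh4, which has another 213 to 208 bases before. TATAAA was found on either strand in 12.4% of all windows and not in these windows of Myh2 and Myh7. The motif of the MEF2 factors occurs in Myh1 (211 to 202 bases before the start) and in Myh4 (182 to 173), and in both it overlaps a TATAAA on the opposite strand. It was found in 2.92% of all windows. CANNTG, the E-box of myogenic factors, occurs at 2 places in Myh4 and at 1 in Myh7, against 66.2% of windows with at least 1. The window of the other Myh7 start has no TATAAA either, but it holds a TATATA and CANNTG at 2 places. The CArG motif of serum response factor was found once, in Myh4, and in 1.47% of windows. In global alignments of the windows, identity was 55.8% for Myh1 with Myh4, 50.5% for Myh2 with Myh1 and 49.8% for Myh2 with Myh4. It was 43.6% to 45.3% for Myh7 with the fast chains. Gaps were allowed and no other windows were aligned, so the identity of unrelated windows is not known here. A match of letters describes the sequence and does not show that a factor binds.

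Transcript signal was read as the percent of each array's summed signal that a probe carried. Such shares are bound to one total, so a rise of some probes lowers the rest, and primers and probes differ in how strongly they report a transcript. The ratio of 2 probes is therefore no ratio of transcripts, and only its variation between mice is read. The floor is the 10th percentile of an array, and a probe above 3 times the floor is called clear of it. The floor was 0.04% to 0.08% on 6 arrays and 0.15% in replicate 3. Replicate 3 stood apart across all probes: on the log2 scale its correlation with the other arrays was 0.248 to 0.412, against 0.876 to 0.992 among the other 6. Its muscle-fibre markers on the array (Mb, Des and Ttn, 3 of 5 listed) summed to 1.07%, against 10.9% to 13.8%. Its endothelial markers (5 of 7 listed) summed to 9.50%, mostly Pecam1 at 8.36%, against 0.450% to 1.27%, and both satellite-cell probes to 3.26%, almost all Myod1, against 0.090% to 0.200%. Of the other lists, Il1b (leukocytes) read 0.17% against 0.04% to 0.09%, Fabp4 (adipocytes) 0.18% against 0.34% to 0.66%, and the 3 probes for Fn1 and Pdgfra (fibroblasts) 0.49% in sum against 0.24% to 0.34%. None of the probes of the endothelial, leukocyte, fibroblast and satellite-cell lists was clear of the floor on all 6 other arrays. All of these probes were highest in replicate 3, but so were 157 of all 223 probes, and its floor was higher too. The part of other cell types in the readings of replicate 3 was not tested. No probe for smooth muscle or nerve markers from the lists is on the array. The 28S rRNA probe, which lies outside the array sum, read 3.48% and 3.79% of that sum in replicates 1 and 2, 0.37% in replicate 3 and 24.1% to 49.7% in replicates 4 to 7. The results below are therefore given with and without replicate 3, and values of replicates 1 and 2 are named.

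Myh7, the slow chain, was among the 5 brightest of all probes on each of 6 arrays. It carried 8.91%, 9.76%, 7.98%, 12.8%, 9.07% and 9.72% of the array sum in replicates 1, 2, 4, 5, 6 and 7, and 0.35% in replicate 3. The mean was 9.71% ± 1.66 (SD, n = 6) and, with replicate 3, 8.37% ± 3.85 (SD, n = 7). The highest of the 6 values, in replicate 5, was 1.61 times the lowest, in replicate 4. Replicates 1 and 2 lie within the range of replicates 4 to 7. The rank of Myh7 among all 223 probes was 3 to 5 on these arrays and 40 in replicate 3.

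Myh2, the IIA chain, carried 3.20% (replicate 1) and 3.08% (replicate 2), and then 1.92%, 1.92%, 2.01% and 2.46% in replicates 4 to 7. Replicate 3 read 0.37%. The mean was 2.43% ± 0.59 (SD, n = 6) and, with replicate 3, 2.14% ± 0.94 (SD, n = 7). Both of replicates 1 and 2 were above each of replicates 4 to 7, and the highest value was 1.67 times the lowest. Myh2 ranked 9 to 14 among all probes, and 37 in replicate 3.

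Myh1, the IIX chain, had the widest range of the 4 on the 6 arrays without replicate 3. It carried 4.41% and 4.20% in replicates 1 and 2, 1.71%, 1.40%, 2.62% and 2.32% in replicates 4 to 7, and 0.25% in replicate 3. The highest of the 6 values was 3.15 times the lowest, and the values of replicates 1 and 2 did not overlap those of replicates 4 to 7. The mean was 2.78% ± 1.26 (SD, n = 6) and, with replicate 3, 2.42% ± 1.5 (SD, n = 7). Its rank among all probes ran from 7 in replicates 1 and 2 to 19 in replicate 5, and was 66 in replicate 3.

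Myh4, the IIB chain, carried 1.16% and 0.99% in replicates 1 and 2, 0.73%, 0.53%, 0.91% and 0.78% in replicates 4 to 7, and 0.21% in replicate 3. The mean was 0.850% ± 0.220 (SD, n = 6) and, with replicate 3, 0.759% ± 0.314 (SD, n = 7). The highest of the 6 values was 2.19 times the lowest. As for Myh1, the lowest was in replicate 5 and the next in replicate 4. Myh4 ranked 17 to 29 among all probes, and 85 in replicate 3. On the 6 arrays Myh4 read 6.63 to 24.8 times the floor, so the IIB probe gave a clear signal in each of these soleus muscles. The probe sequences were not at hand, so whether this probe also reports the other fast chains was not tested.

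All 4 probes were clear of the floor on the 6 arrays without replicate 3, as were 17% of all probes, and none was clear of it in replicate 3, where 13% of all probes were. There they read 2.33 (Myh7), 2.47 (Myh2), 1.67 (Myh1) and 1.40 (Myh4) times the floor. All 4 were lowest in replicate 3, against 14.3% of all probes, and this held after median-centring (30.5% of all probes) and quantile normalization (37.2%). The share over all probes includes 140 that were clear of the floor on none of the 6 arrays. With its higher floor, replicate 3 can hardly be lowest for those. Every other listed probe clear on the 6 arrays (Mb, Car3, Des, Ttn and Fabp4) was lowest there too. The fall is therefore not shown to be particular to the myosins. Together the 4 probes carried 12.3% to 18.0% of the array sum on 6 arrays and 1.18% in replicate 3. The low readings of replicate 3 were not limited to muscle lists, as Rps29 read 0.29% there against 1.37% to 2.75%. The 28S rRNA probe was not clear of the floor there. In bulk tissue, fewer muscle fibres and less myosin RNA per fibre cannot be told apart. Neither can be told apart from a difference in RNA quality or labelling, which was not tested.

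**Figure D1:**
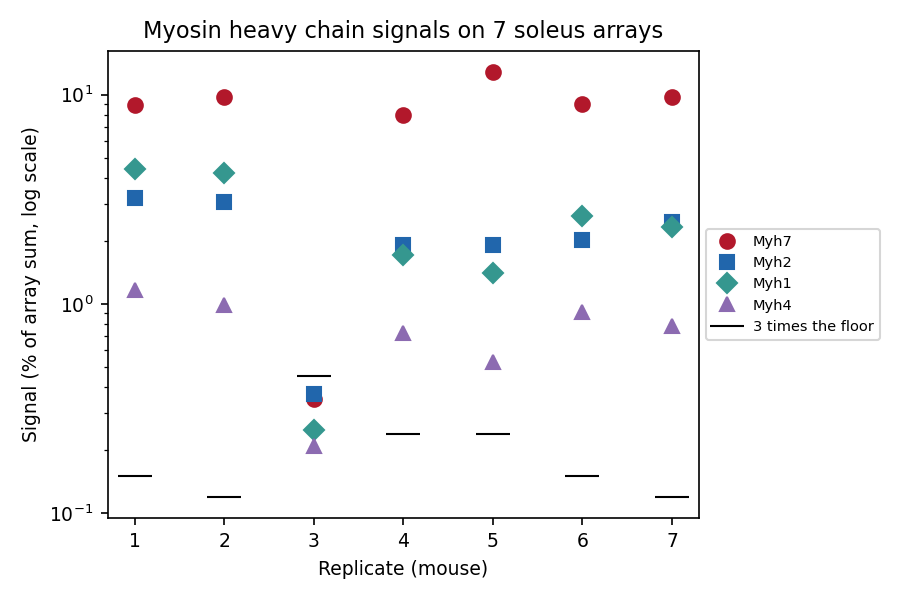
Signal of the Myh7, Myh2, Myh1 and Myh4 probes (percent of array sum, log scale) on each of the 7 arrays, with a bar at 3 times the floor of that array. All 4 points lie under the bar in replicate 3 and above it elsewhere. Myh1 runs from 1.40% to 4.41% on the other 6 arrays and Myh7 from 7.98% to 12.8%.

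The balance of slow and fast signal was then set side by side for the 7 mice, with no test. The ratio of Myh7 to the summed signal of Myh2, Myh1 and Myh4 was 1.02 and 1.18 in replicates 1 and 2, 1.83, 3.33, 1.64 and 1.75 in replicates 4 to 7, and 0.422 in replicate 3. It thus varied 3.28-fold over 6 mice, but 1.80-fold (1.02 to 1.83) without replicate 5, and replicates 1 and 2 were below each of replicates 4 to 7. On the log2 scale the mean was 0.73 ± 0.60 (SD, n = 6) and, with replicate 3, 0.45 ± 0.92 (SD, n = 7). A ratio within an array does not depend on the array's total. It changed little when the floor was subtracted first (1.03, 1.19, 0.526, 1.92, 3.53, 1.67 and 1.78 in replicates 1 to 7). In replicate 3 all 4 readings lie near the floor, so its ratio carries little information.

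The numerator and the denominator did not contribute alike. The summed fast signal was 8.77% and 8.27% of the array sum in replicates 1 and 2, against 3.85% to 5.56% in replicates 4 to 7. Myh7 was 8.91% and 9.76% against 7.98% to 12.8%. The high ratio in replicate 5 combines the highest Myh7 signal with the lowest Myh1 and Myh4 signals of the 6 arrays. Each of Myh2, Myh1 and Myh4, but not Myh7, had both readings of replicates 1 and 2 above every reading of replicates 4 to 7. The same was true of 4.48% of all probes. After median-centring it was true of all 4 genes and of 22% of all probes. After quantile normalization it was true of the 3 fast chains and of 26.5% of all probes. The 28S rRNA signal separates the same mice, and its part in this difference was not tested.

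**Figure D2:**
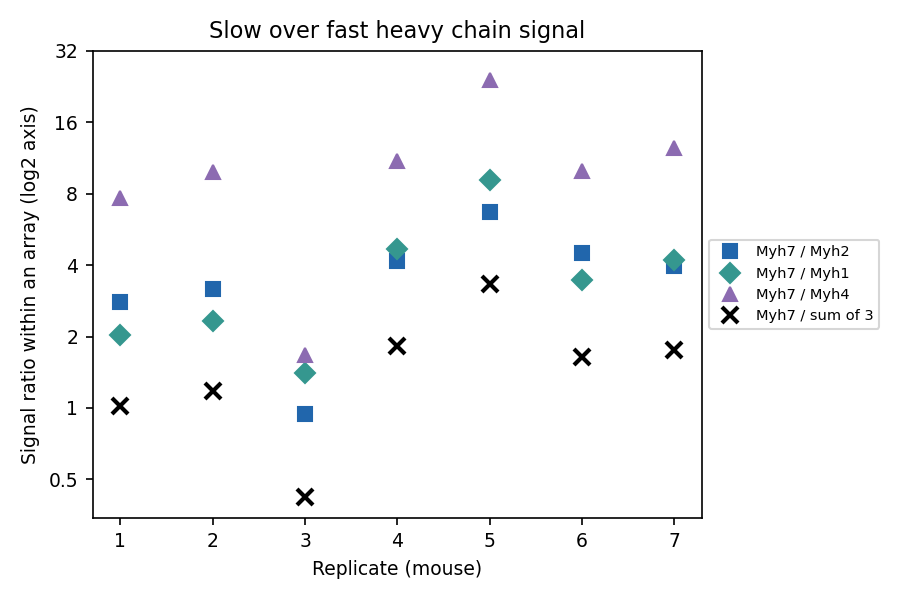
Ratio of the Myh7 signal to each fast chain and to their sum within each of the 7 arrays, on a log2 axis. Replicate 5 is highest in all 4 ratios, with 3.33 for the sum, and replicates 1 and 2 are lower than replicates 4 to 7 in each.

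Among the single ratios, Myh7 over Myh1 varied most on the 6 arrays without replicate 3, and Myh7 over Myh4 (14.5-fold) with it. Myh7 over Myh1 was 2.02 and 2.32 in replicates 1 and 2, 4.67, 9.16, 3.46 and 4.19 in replicates 4 to 7, a 4.54-fold range, and 1.40 in replicate 3. Myh7 over Myh4 was 7.68 and 9.86 against 9.97 to 24.2, a 3.15-fold range, and 1.67 in replicate 3. Myh7 over Myh2 was 2.78 and 3.17 against 3.95 to 6.68, a 2.40-fold range, and 0.946 in replicate 3. The ratios between the fast chains had narrower ranges over the 6 mice. Myh2 over Myh1 spanned 1.89-fold, Myh1 over Myh4 1.81-fold and Myh2 over Myh4 1.64-fold. The SD of the log2 ratio over 6 arrays was 0.25 for Myh2 over Myh4, 0.32 for Myh1 over Myh4 and 0.39 for Myh2 over Myh1. It was 0.44, 0.78 and 0.57 for Myh7 over Myh2, Myh1 and Myh4. Replicate 5 decides this order. Without it and replicate 3, Myh7 over Myh1, Myh4 and Myh2 spanned 2.31-, 1.62- and 1.62-fold, while Myh1 over Myh4 still spanned 1.81-fold. The fast chains are therefore not shown to have kept closer to one another than to the slow chain.

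As parts of the summed signal of the 4 probes, Myh7 made up 50.4% and 54.1% in replicates 1 and 2, against 62.1% to 76.9% in replicates 4 to 7. Myh1 made up 24.9% and 23.3% against 8.39% to 17.9%, and Myh2 18.1% and 17.1% against 11.5% to 16.1%. Myh4 made up 6.56% and 5.49% against 3.18% to 6.23%, which overlap. Averaged over 7 arrays, Myh7 made up 57.4% ± 14.9, Myh2 17.6% ± 6.4, Myh1 17.8% ± 5.8 and Myh4 7.18% ± 4.81 (SD, n = 7). Replicate 3 had 29.7%, 31.4%, 21.2% and 17.8% in the same order. Without it the means were 62.0% ± 9.3, 15.4% ± 2.4, 17.3% ± 6.2 and 5.41% ± 1.21 (SD, n = 6).

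**Figure D3:**
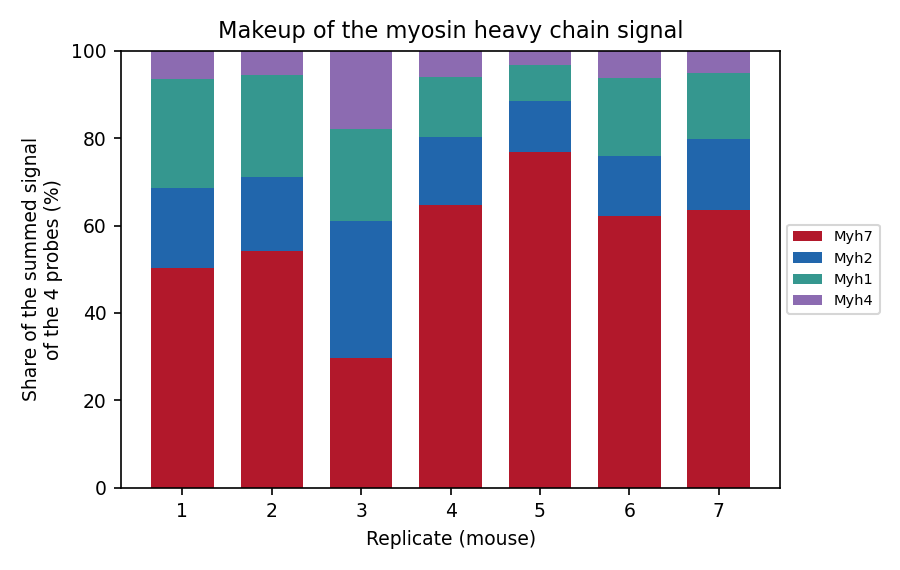
Share of the summed signal of the 4 probes (percent) carried by Myh7, Myh2, Myh1 and Myh4 on each of the 7 arrays, as stacked bars. Myh7 makes up 76.9% in replicate 5, 50.4% in replicate 1 and 29.7% in replicate 3, where all 4 readings lie near the floor.

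Whether these genes varied more than other probes of like level was asked with an F test built on limma's variance trend. It sets each probe's variance against the trend over mean level, and its calls and p-values are labelled limma below. None of the 4 was called over 7 arrays, and neither was any of the 223 probes (0% called, with 17 probes at an unadjusted p under 0.05, none of them a myosin). The limma adjusted p was 0.885 for each of the 4. Since the trend comes from these very arrays, the fall of bright probes in replicate 3 is part of it. The SD of Myh7 was 1.82 on the log2 scale against a trend of 1.73, that of Myh2 1.06 against 1.19, that of Myh1 1.40 against 1.19 and that of Myh4 0.83 against 0.81. Without replicate 3, limma called 2.24% of probes, none of them a myosin. The SD of Myh7 was then 0.23 against a trend of 0.46, and 9.0% of probes had a smaller one. That of Myh1 was 0.67 against 0.39 (limma adjusted p = 0.773), and 86.1% of probes had a smaller one. Myh2 and Myh4 lay close to the trend, at 0.34 and 0.39.

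Spread was also compared between the fast chains and Myh7 in the same mice, by a Pitman-Morgan comparison with an exact two-sided permutation test, adjusted over the 3 fast chains. Over 7 arrays the SD was lower than that of Myh7 by 0.76 (log2) for Myh2 (exact p = 0.108, adjusted p = 0.190), by 0.41 for Myh1 (exact p = 0.287, adjusted p = 0.287) and by 0.99 for Myh4 (exact p = 0.127, adjusted p = 0.190). Replicate 3 decides this direction. Without it the SD of Myh1 was 0.44 higher than that of Myh7 (exact p = 0.044, adjusted p = 0.133), that of Myh2 0.11 higher (exact p = 0.478) and that of Myh4 0.16 higher (exact p = 0.226). No comparison passed a threshold of 0.05 after adjustment with or without replicate 3.

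**Figure D4:**
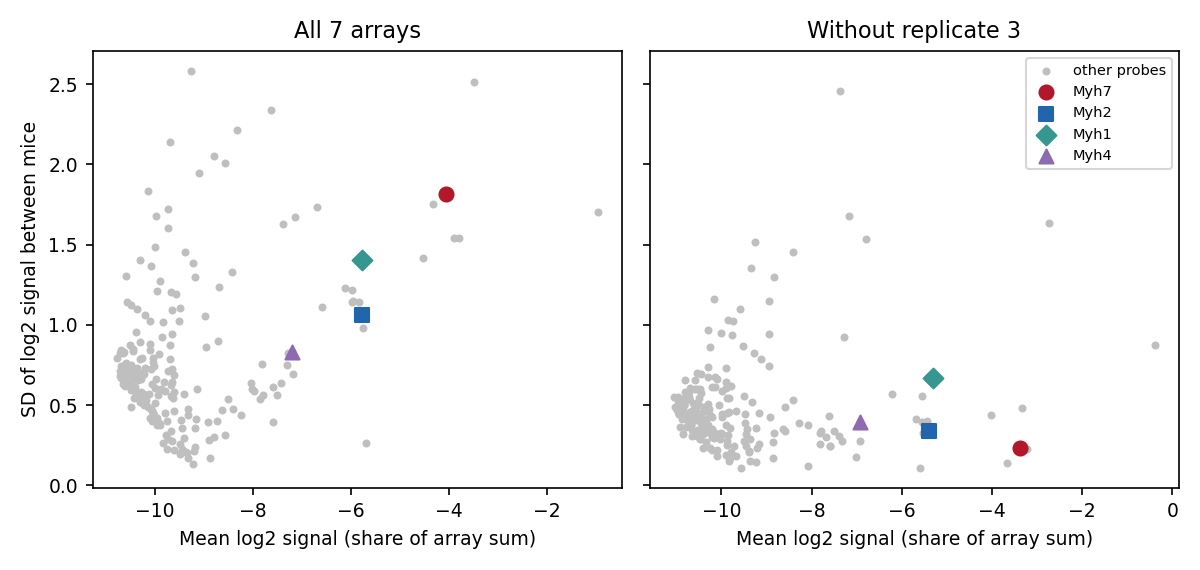
SD of the log2 signal between mice against its mean for all 223 probes, over 7 arrays (left) and without replicate 3 (right), with the 4 myosins marked. Without replicate 3 Myh7 falls from an SD of 1.82 to 0.23 and Myh1 from 1.40 to 0.67.

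The genes whose log2 signals ran most like the myosins were sought among 32 named probes clear of the floor on each of the 6 arrays without replicate 3. The correlations are descriptions over few arrays. Over 7 arrays they follow the low readings of replicate 3. Over 6 arrays those of the fast chains include the difference between replicates 1 and 2 and the others, and that of Myh7 with Mb includes replicate 5, highest in both. For Myh7 the most alike was Mb, which encodes the oxygen store myoglobin (r = 0.998 over 7 arrays and 0.843 over 6). Over 7 arrays Aldoa and Cox5b came next (0.974 and 0.967). Over 6 arrays the next were weak, namely Rps29 (0.547) and Mdh2 (0.512). The ratio of Myh7 to Mb was 1.17 and 1.32 in replicates 1 and 2, 1.10, 1.40, 1.18 and 1.12 in replicates 4 to 7, and 1.09 in replicate 3. It therefore stayed within a 1.28-fold range on all 7 arrays, although both signals were near the floor in replicate 3. Mb was picked as the most alike on these same arrays, which favours a narrow range.

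For the fast chains the most alike were other genes. Des, which encodes the intermediate filament desmin, carried 3.20% and 3.09% in replicates 1 and 2, 1.58% to 2.34% in replicates 4 to 7 and 0.32% in replicate 3. Over 6 arrays its r was 0.926 with Myh2, 0.948 with Myh1 and 0.821 with Myh4. Cox6a2, a respiratory chain subunit of muscle mitochondria, had 0.913 with Myh2 and 0.836 with Myh1, and Gapdh, a glycolytic enzyme, 0.923 with Myh2. Pdha1, a subunit of pyruvate dehydrogenase, had 0.818 with Myh1 and 0.931 with Myh4, and the integrin gene Itgb1 0.644 with Myh4. Over 7 arrays the leading genes were Gapdh, Cox6a2 and Des for Myh2 (0.994, 0.993 and 0.993), Des, Pdha1 and Cox6a2 for Myh1 (0.985, 0.968 and 0.966) and Pdha1, Des and Cox6a2 for Myh4 (0.986, 0.968 and 0.943). Mb is not among the 3 most alike for any fast chain, and Des not for Myh7.

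**Figure D5:**
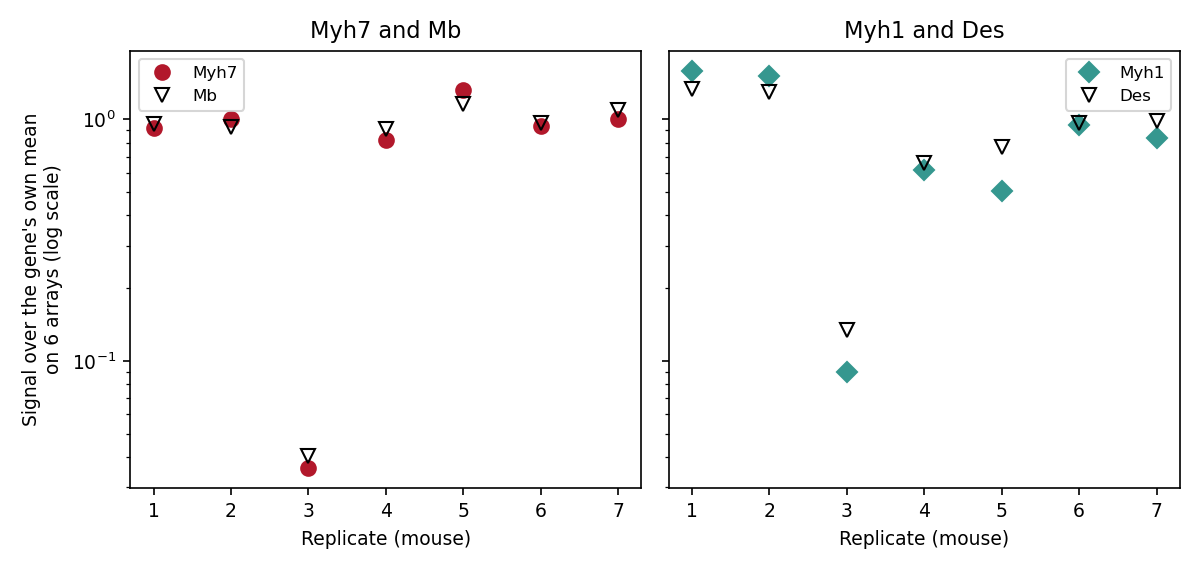
Signals of Myh7 with Mb (left) and of Myh1 with Des (right), each divided by the gene's own mean over the 6 arrays other than replicate 3, on a log scale. In replicates 1 and 2 Myh1 and Des lie above 1, whereas Myh7 and Mb lie near it, and all fall in replicate 3.

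The listed contractile and fibre-type genes give the setting. Of 10 slow-fibre genes, 2 are on the array, Mb and Car3, and both were clear of the floor on the 6 arrays and lowest in replicate 3. Mb carried 7.96% ± 0.78 (SD, n = 6). Car3, the muscle carbonic anhydrase of slow fibres, carried 0.88% and 0.89% in replicates 1 and 2, 1.10% to 2.21% in replicates 4 to 7 and 0.22% in replicate 3. It thus lay lower in replicates 1 and 2 than in the other 4, the reverse of the fast chains, as did 30% of all probes. Of 7 sarcomere scaffold genes, Des and Ttn are on the array. Ttn, the giant sarcomeric spring, carried 1.97% and 3.03% in replicates 1 and 2, against 1.73% to 2.98% in replicates 4 to 7, which overlap. None of the 10 fast-fibre genes and none of the 7 other myosin heavy chains on the lists has a probe, so Myh2, Myh1 and Myh4 are the only listed fast-fibre readings here.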

How the data were processed

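Per the labels' protocols, total RNA from cryosections of the soleus belly was extracted with a column kit, and 4 µg was reverse transcribed with gene-specific primers and a 32P-labelled nucleotide for a 1-channel array. The deposited values are linear spot intensities. The sources used here do not say how the authors scaled the intensity values, corrected background or scanned. With 28S rRNA and the brightest unnamed probe left out, the values of an array add up to 0.998 to 1.00. They are therefore shares of array signal, printed as percent, in steps of 0.01%. At least 1 value is finer (Car3 in replicate 6, 2.2141%). The number of arrays limits the precision.

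Probes were named through the platform annotation (205 of 223 with 1 symbol, 18 with none, none with several). All 4 myosin identifiers matched RefSeq. The members and lists were chosen with earlier results of these data known. Named genes are the 4 myosins, list members on the array and, for each myosin, the 3 most correlated clear probes over 7 and over 6 arrays. Others, such as Pecam1 and Myod1 as the brightest of their lists, were named after their values were seen.

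Log2 of the deposited values was fitted with limma 3.58.1 (R 4.3.3), intercept-only and with a robust trend. The ratio of each probe's variance to the trend was put to a one-sided F test, with Benjamini-Hochberg adjustment over 223 probes. The robust fit lowers the prior degrees of freedom of outlying probes, the very ones under test, so the undiminished value was used. Pairs of SDs were compared by exact permutation over 5040 pairings (7 arrays) or 720 (6 arrays) in Python 3.11.15. Both tests were tried on simulated normal values, drawn for limma from the trend fitted without replicate 3. No outlying array was simulated, so these trials do not bear on results that replicate 3 decides. Alternatives were median-centring, quantile normalization, a pseudocount of 0.05%, a filter on dim probes (25th percentile, 167 kept), a fit without trend, floor subtraction, other totals, medians and leaving out each replicate.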

Additional observations from a re-analysis of the deposited data

Results flagged for a closer look

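In 15 myosin values, Dixon's ratio was used to look for a mouse that lies far from the rest: the distance of the lowest or highest reading to its neighbour, divided by the full spread. The critical value at the 95% level was passed by 6, each time through replicate 3. Chance gives about 1 in 20 for independent values. These values are signals, shares and ratios of the same myosin probes on the same arrays and are not independent. The 6 of 15 can therefore not be set against that rate. Dixon's ratio was not taken for the other probes. Replicate 3 stood apart across all probes, so the count is not shown to be particular to the myosins. Replicate 3 was lowest in the log2 signal of Myh7 (0.868), Myh2 (0.763) and Myh1 (0.600), and in the log2 ratio of Myh7 to Myh4 (0.571). It was highest in the share of the summed myosin signal carried by Myh2 (0.668) and by Myh4 (0.769). The log2 signal of Myh4 (0.542) and the log2 ratio of Myh7 to the summed fast chains (0.425) did not pass.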

How the results depend on the processing

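Of 155 alternative values, 148 kept their direction, their side of the threshold or a place within 1 SD. Leaving out 1 of 7 arrays cannot move a mean by 1 SD over the 7. Those values for signals and shares were therefore bound to be kept, and those for the ratio could fail only by a change of sign. The count of 148 thus says little about stability. The number of myosins called by limma was 0 under every alternative, and 1 passed an unadjusted p of 0.05 in the fit without trend. Leaving out each replicate in turn gave 0 to 5 variable probes, with 5 without replicate 3 and 0 when those 6 arrays were also median-centred (17 at an unadjusted p under 0.05). It gave a difference in SD from Myh7 of -0.88 to 0.11 for Myh2, -0.56 to 0.44 for Myh1 and -1.15 to 0.16 for Myh4. The positive values, 0.11, 0.44 and 0.16, are those without replicate 3, where the direction reversed. As a share of all probes, with 28S rRNA and the unnamed probe in the total, mean signals were 4.18% for Myh7, 1.09% for Myh2, 1.24% for Myh1 and 0.395% for Myh4, since that total is larger. The mean log2 ratio of Myh7 to the fast chains ran from 0.23 without replicate 5 to 0.73 without replicate 3, and was 0.50 with replicates 1 and 2 averaged and 0.53 without replicates 3 and 5, alternatives chosen after seeing the data. No paired comparison of groups was possible because the series holds 1 group.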

Other observations

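Over the 38 probes clear of the floor on the 6 arrays without replicate 3, the SD of the log2 difference was 0.30 between replicates 1 and 2 and 0.45 to 1.22 for the other 14 pairs of these arrays. For Myh7 other arrays were closer, with 8.91% and 9.76% in replicates 1 and 2 and 9.72% in replicate 7. Replicate 5 had the highest Myh7 signal (12.8%), the highest Mb signal (9.17%) and the lowest Myh1 (1.40%) and Myh4 (0.53%) signals of the 6 arrays other than replicate 3. Its Myh2 signal (1.92%) equalled that of replicate 4. The ratio of Myh4 to Pdha1 was 1.15 and 1.18 in replicates 1 and 2, 0.897 to 0.986 in replicates 4 to 7 and 0.840 in replicate 3. This ratio stayed within a 1.40-fold range on all 7 arrays, although both signals were near the floor in replicate 3. Pdha1 was picked as the most correlated with Myh4 on these same arrays, which favours a narrow range.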
